A study of Homo sapiens with 14 samples.

Results

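The CDK inhibitor genes and the locus on the short arm of chromosome 9 that holds 2 of them were followed through 14 bulk RNA-seq libraries of 4 human cancer cell lines. The 8 genes, out of 62699 in the count table, are CDKN2A, CDKN2B, CDKN2C and CDKN2D of the INK4 family, CDKN1A, CDKN1B and CDKN1C of the Cip/Kip family, and MTAP, which lies beside CDKN2A. They were chosen by name with their baseline counts and their ratios of ADAR siRNA to control siRNA already known, so these values are a description and carry no test. The lines were MDA-MB-231 and BT-549 from triple-negative breast cancer, NCI-H1395 from lung adenocarcinoma and AGS from adenocarcinoma of the stomach. Each line gave 1 library with a control siRNA and 2 libraries, numbered 1 and 2, with an siRNA against ADAR, the gene of the RNA editing enzyme ADAR1. MDA-MB-231 also gave 1 library with NOP14 overexpression and 1 with its control, named PCDH in the labels. NOP14 is a nucleolar protein needed for the small ribosomal subunit. No other allele or agent is given for any group.

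INK4 proteins bind CDK4 and CDK6 and keep them from pairing with D-type cyclins. Cip/Kip proteins bind cyclin-CDK complexes and hold back CDK2 above all. Both families keep the retinoblastoma protein active and cells in G1. CDKN2A encodes p16INK4a and, from another first exon read in another frame, p14ARF, which restrains MDM2. CDKN2B encodes p15INK4b, a target of TGF-beta signalling. MTAP recycles methylthioadenosine, a by-product of polyamine synthesis, into the methionine salvage pathway, and it is often deleted together with CDKN2A in tumours. On hg38, as the table gives it, 3 of the 8 genes lie together on chromosome 9, in the order MTAP (ENSG00000099810.21; chr9:21802636-21937651), CDKN2A (ENSG00000147889.18; chr9:21967752-21995301) and CDKN2B (ENSG00000147883.12; chr9:22002903-22009305). The others are CDKN2C (ENSG00000123080.12; chr1:50960745-50974634), CDKN2D (ENSG00000129355.7; chr19:10566460-10569059), CDKN1A (ENSG00000124762.14; chr6:36676460-36687337), CDKN1B (ENSG00000111276.12; chr12:12685498-12722369) and CDKN1C (ENSG00000129757.15; chr11:2883213-2885775). Each count is the sum over the exons of a gene, so it does not separate p16INK4a from p14ARF transcripts.

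The promoters of the chromosome 9 genes are shown because these genes were present or absent line by line. Each run holds the 250 bases before a gene start, on the strand of the gene, from the RefSeq table of GRCh38.p14, with every CG in capitals. Of the 8 genes, 7 had an entry in that table. CDKN2A has 2 starts there, and CDKN2B lies on the same minus strand, with MTAP on the plus strand.
CDKN2A start at chr9:21974858-21975107: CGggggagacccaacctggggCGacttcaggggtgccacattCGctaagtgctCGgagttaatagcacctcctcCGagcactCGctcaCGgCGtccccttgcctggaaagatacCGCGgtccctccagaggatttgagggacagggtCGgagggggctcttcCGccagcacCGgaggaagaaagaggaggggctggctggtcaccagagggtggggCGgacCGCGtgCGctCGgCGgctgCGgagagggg
CDKN2A start at chr9:21995325-21995574: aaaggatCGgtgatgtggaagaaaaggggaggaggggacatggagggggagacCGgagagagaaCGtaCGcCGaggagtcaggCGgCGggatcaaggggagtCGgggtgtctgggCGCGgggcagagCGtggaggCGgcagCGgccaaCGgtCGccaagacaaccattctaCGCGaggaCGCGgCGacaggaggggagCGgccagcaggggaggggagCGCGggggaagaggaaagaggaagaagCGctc
CDKN2B at chr9:22009306-22009555: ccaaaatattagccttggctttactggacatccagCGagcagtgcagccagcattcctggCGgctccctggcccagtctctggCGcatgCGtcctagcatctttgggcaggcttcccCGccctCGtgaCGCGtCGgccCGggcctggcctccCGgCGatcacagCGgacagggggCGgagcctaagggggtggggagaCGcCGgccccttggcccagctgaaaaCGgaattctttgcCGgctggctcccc
MTAP at chr9:21802386-21802635: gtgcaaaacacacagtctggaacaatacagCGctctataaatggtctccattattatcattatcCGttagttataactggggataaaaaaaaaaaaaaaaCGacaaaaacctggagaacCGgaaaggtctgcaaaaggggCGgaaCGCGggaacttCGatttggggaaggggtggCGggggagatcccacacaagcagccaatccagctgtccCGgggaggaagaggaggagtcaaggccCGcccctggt
The CDKN2A windows held 20 and 24 CGs, the CDKN2B window 18 and the MTAP window 11. Over 35116 promoters the median was 11, and 32.4%, 23.7%, 36.8% and 50.3% of them held at least as many. The letters GGGCGG, the GC box bound by SP1, were found on either strand 1 time in the first CDKN2A window, 0 times in the other, 2 times in the CDKN2B window and 2 times in the MTAP window, and 42.6% of all promoters held them.

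CDKN2A and CDKN2B are related in sequence, which bears on how reads are assigned. In AGS CDKN2B had 601 to 1797 counts in libraries where CDKN2A had 0.

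Total counts ran from 13338338 to 27828376 per library. ADAR was below its control in every line, with 32.3% and 33.8% of the control level left in MDA-MB-231, 17.6% and 24.0% in AGS, 12.9% and 11.5% in BT-549 and 10.6% and 11.9% in NCI-H1395. NOP14 was 6.61-fold higher in its overexpression library than in PCDH (852 against 129 CPM), and it was at 336 CPM in the control siRNA library of the same line. ESR1 and PGR were at or under 0.727 CPM (counts relative to TMM-adjusted library sizes) in both breast lines, and ERBB2 was at 58.2 to 132 CPM. In NCI-H1395 and AGS, ESR1 and PGR were likewise at or under 0.657 CPM. ERBB2 was at 62.6 to 73.0 CPM in NCI-H1395 and 86.6 to 176 CPM in AGS, so these genes did not set the breast lines apart. The lung markers NKX2-1, NAPSA, SFTPB and SFTPC were at or under 0.936 CPM in NCI-H1395, where among epithelial genes EPCAM, CDH1 and KRT19 were at or under 0.717 CPM, and KRT8 was at 166 to 238 CPM and KRT18 at 389 to 583 CPM. In AGS the gastric markers CLDN18, TFF1, TFF2, MUC5AC and GKN1 were at or under 2.34 CPM, while EPCAM was at 314 to 394 CPM. The gastric markers summed to 2.87 CPM in the AGS control and to 10.3 CPM in the MDA-MB-231 control, so they did not set AGS apart. Of the immune genes, CD3E and PTPRC were at or under 1.01 CPM in every siRNA library, and CD14 was at or under 3.94 CPM.

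CDKN2A was strongly present in BT-549, present in NCI-H1395 and at 0 in MDA-MB-231 and AGS. In BT-549 it had 10854 counts with control siRNA and 11112 and 14192 with ADAR siRNA, or 548, 639 and 643 CPM. In NCI-H1395 it had 1570, 2624 and 1488 counts, or 83.8, 112 and 88.8 CPM. All 3 siRNA libraries of MDA-MB-231 and of AGS had 0 counts, as did NOP14 overexpression, and PCDH had 1. A count of 0 allows up to 3 counts, or 0.160 CPM in the MDA-MB-231 control and 0.175 CPM in the AGS control. The level in the BT-549 control was thus at least 3418-fold higher than in the MDA-MB-231 control and at least 3126-fold higher than in the AGS control. For NCI-H1395 the bounds were at least 522-fold and at least 478-fold. In bulk libraries fewer expressing cells and less RNA per cell cannot be told apart, and neither can a lost locus and a silent one.

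CDKN2B, the neighbour of CDKN2A, was absent from 1 line only. Its control levels were 82.1 CPM in BT-549, 38.9 CPM in NCI-H1395 and 35.1 CPM in AGS, with 0 counts in all 5 MDA-MB-231 libraries. The ranges over the 3 siRNA libraries overlapped between BT-549 and NCI-H1395 and between NCI-H1395 and AGS. MTAP had the same presence pattern, with control levels of 190 CPM in BT-549, 84.3 CPM in NCI-H1395, 54.1 CPM in AGS and 0 counts in the 5 MDA-MB-231 libraries. Against the floor of the MDA-MB-231 control, the AGS control was at least 219-fold higher for CDKN2B and at least 337-fold higher for MTAP.

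**Figure D1:**
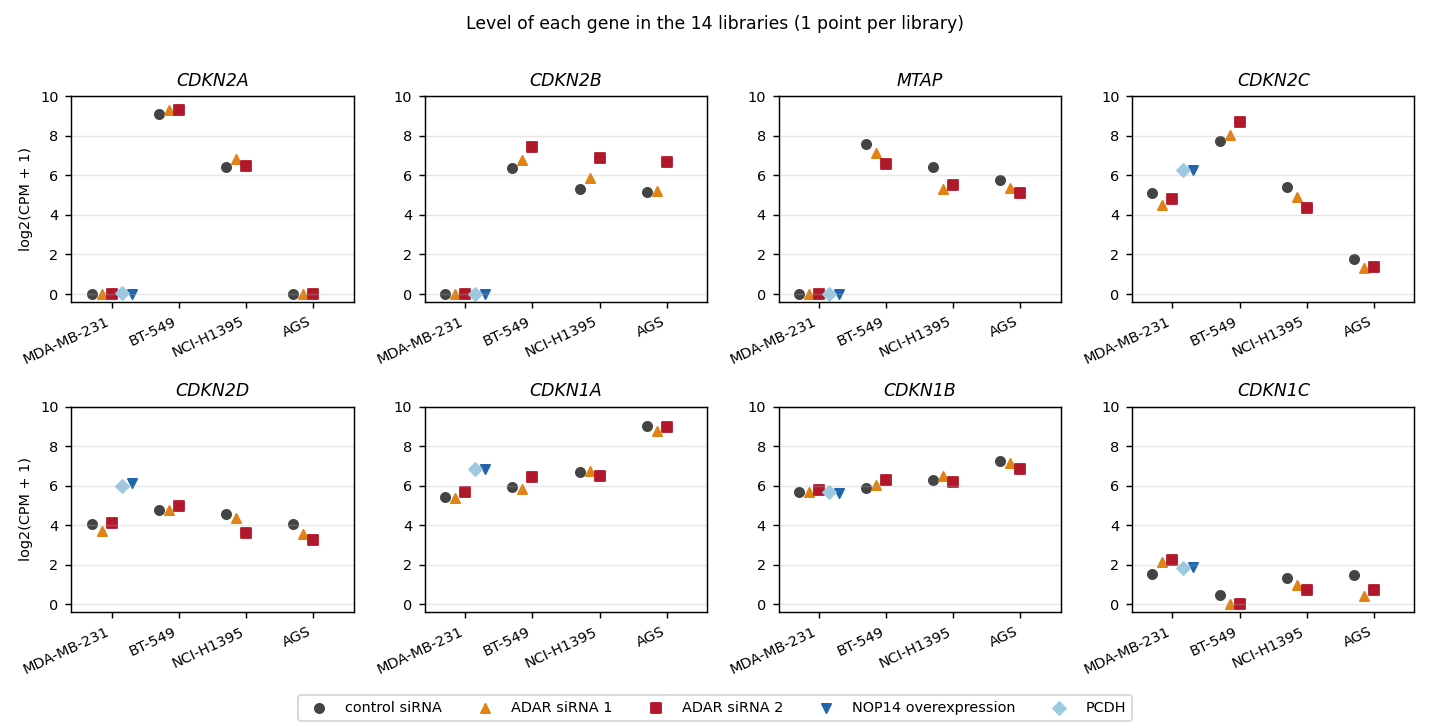
Level of the 8 genes on a log2(CPM + 1) axis in each of the 14 libraries, grouped by cell line, with 1 point per library and a marker for each treatment. CDKN2A, CDKN2B and MTAP lie at 0 in MDA-MB-231, CDKN2A also in AGS, and CDKN2C runs from 1.503 CPM in AGS to 410 CPM in BT-549.

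The other INK4 genes, on other chromosomes, were counted in every line. CDKN2C, which encodes p18INK4c, was at 211 CPM in the BT-549 control, 41.5 CPM in NCI-H1395, 33.9 CPM in MDA-MB-231 and 2.46 CPM in AGS. BT-549 stood above and AGS below the other lines with no overlap of their siRNA libraries, while NCI-H1395 and MDA-MB-231 overlapped. Each such range takes in the control and both ADAR siRNA libraries of a line. The share of all genes without overlap between these lines was not counted. CDKN2D, which encodes p19INK4d, varied less, at 26.6 CPM in BT-549, 23.0 CPM in NCI-H1395, 15.9 CPM in MDA-MB-231 and 15.7 CPM in AGS. Among siRNA libraries only BT-549, the highest line, did not overlap with the next, while the PCDH and NOP14 overexpression libraries of MDA-MB-231 were higher still, at 62.1 and 68.5 CPM.

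The Cip/Kip genes put the lines in another order. CDKN1A, which encodes p21, was at 510 CPM in the AGS control, 103 CPM in NCI-H1395, 60.8 CPM in BT-549 and 42.4 CPM in MDA-MB-231, and no neighbouring lines overlapped in their siRNA libraries. The PCDH and NOP14 overexpression libraries of MDA-MB-231, at 112 and 113 CPM, were above all siRNA libraries of BT-549 and NCI-H1395. CDKN1B, which encodes p27, was at 150 CPM in AGS, 75.8 CPM in NCI-H1395, 58.1 CPM in BT-549 and 50.8 CPM in MDA-MB-231. NCI-H1395 and BT-549 overlapped for it. For these genes too, the share of all genes without overlap between the lines was not counted. CDKN1C, the imprinted gene of p57, was scarce everywhere, with 35 counts in the MDA-MB-231 control, 31 in AGS, 28 in NCI-H1395 and 8 in BT-549.

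Genes were compared with each other only per kilobase of exon. In CPM per kilobase, CDKN2A led in the BT-549 control (141) and was followed by CDKN2C (69.9). CDKN1A led in the AGS control (170), where CDKN1B came next (16.2). CDKN1A also led in the control siRNA libraries of NCI-H1395 (34.4) and MDA-MB-231 (14.2), whereas CDKN2D (41.3) came before CDKN1A (37.5) in the PCDH library of MDA-MB-231. The 4 INK4 genes summed to 249 CPM per kilobase in the BT-549 control, 60.3 in NCI-H1395, 21.8 in MDA-MB-231 and 20.1 in AGS. The 3 Cip/Kip genes summed to 26.7, 43.2, 20.4 and 187 in the same order. BT-549 thus had most INK4 transcript and AGS most Cip/Kip transcript, from control libraries with no replicate.

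Transcripts of the proteins that these inhibitors act on were counted in the same libraries. RB1 was lowest in BT-549, at 32.4 CPM in the control and 37.1 and 34.1 CPM with ADAR siRNA, and it was at 88.6, 92.0 and 112 CPM in the controls of MDA-MB-231, NCI-H1395 and AGS. CDK4 was at 90.3, 147, 144 and 85.1 CPM in the controls of MDA-MB-231, BT-549, NCI-H1395 and AGS, and CDK6 at 121, 87.7, 485 and 464 CPM. Among the D-type cyclins, CCND1 was at 828, 149, 637 and 3164 CPM and CCND3 at 114, 106, 122 and 107 CPM in those controls. CCND2 was at or under 6.58 CPM in these controls. BT-549 had the lowest RB1 and CCND1 levels of the 4 controls beside the highest CDKN2A level. CCNE1, the cyclin that activates CDK2, was at 16.8, 48.1, 37.9 and 32.1 CPM in the same order as CDK4. MDM2, the ubiquitin ligase that p14ARF restrains, was at 80.1, 45.4, 86.5 and 365 CPM in that order. AGS had the highest level of both MDM2 and CDKN1A.

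The counts of neighbouring genes showed how far the absence reached. In MDA-MB-231 all 20 genes from HACD4 (chr9:20999509-21031640) to ELAVL2 (chr9:23690104-23826337) that had at least 10 counts in a library of another line were at 0 in the 5 libraries, apart from the single CDKN2A count in PCDH. They span 2.83 Mb and include KLHL9, with up to 2343 counts elsewhere, and IFNE and MIR31HG. The nearest genes with at least 10 counts in each MDA-MB-231 library were FOCAD on one side, at 117 to 150 counts, and TUSC1 on the other, at 112 to 310 counts, which lie 4.68 Mb apart. Of the 75 genes of the table between them, 72 were at 0 in all 5 libraries. The exceptions beside CDKN2A were the pseudogene KHSRPP1, with 1 count in each of 2 libraries, and RN7SL151P, with 12, 16 and 23 counts in the siRNA libraries and 0 in the others. RN7SL151P is a copy of the many-copy 7SL RNA, so its reads could come from other copies. FOCAD itself had 894 to 1794 counts in the siRNA libraries of the other 3 lines.

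AGS showed a narrower pattern. CDKN2A and CDKN2A-DT were at 0 in its 3 libraries and CDKN2B-AS1, which overlaps CDKN2A and CDKN2B on the opposite strand, had 2, 0 and 0 counts. CDKN2B, which lies within the span of CDKN2B-AS1, and MTAP were counted in all 3. In BT-549 and NCI-H1395 CDKN2B-AS1 had 644 to 762 and 154 to 250 counts. Whether strand was used in counting is not stated in the labels or notes, so where CDKN2B-AS1 and CDKN2B are both expressed their overlapping reads cannot be told apart. In AGS, CDKN2B was counted with CDKN2B-AS1 at or near 0.

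**Figure D2:**
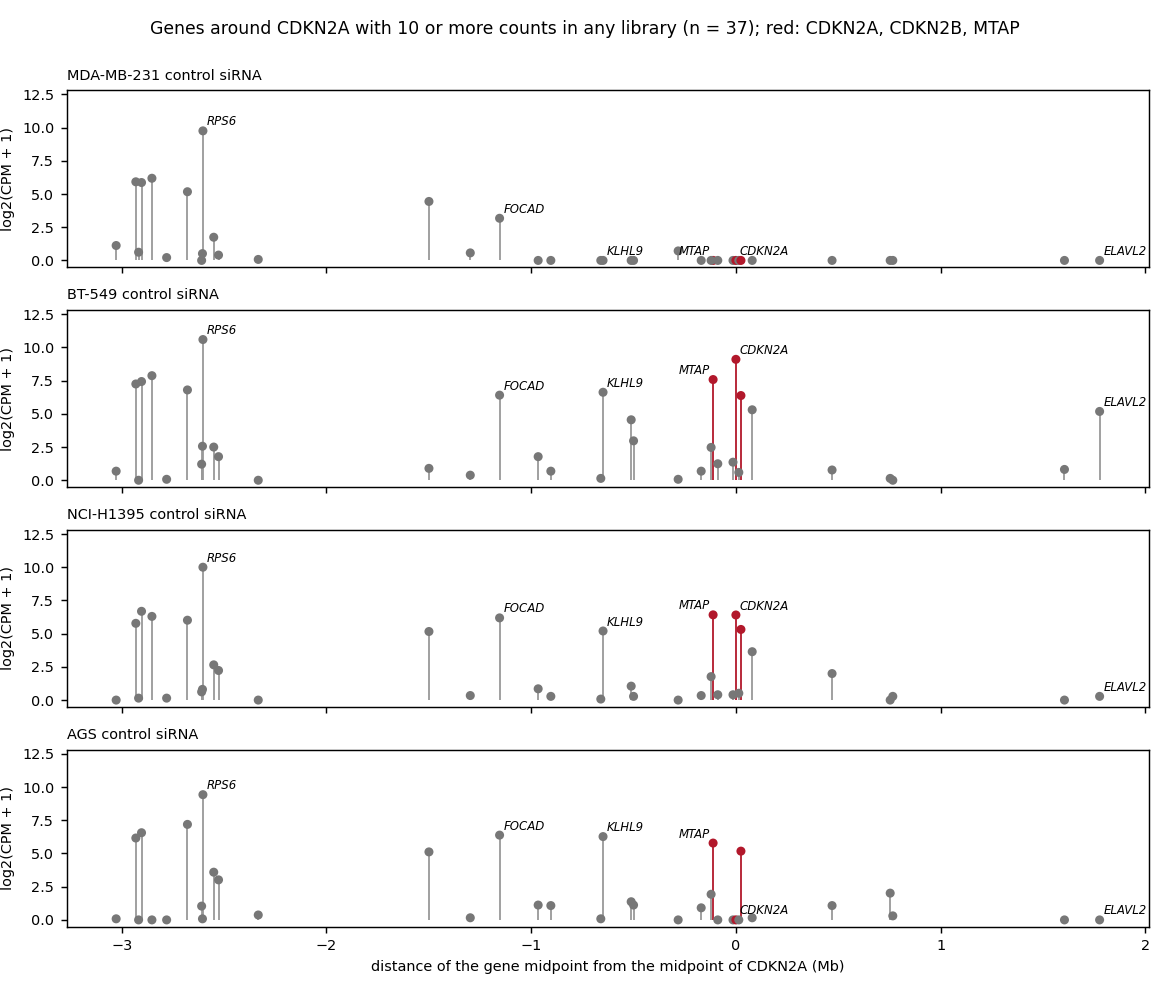
Level on a log2(CPM + 1) axis of the 37 genes near CDKN2A with 10 or more counts in any library, against the distance of their midpoints from that of CDKN2A in Mb, for the control siRNA library of each line. MDA-MB-231 has no signal from just past FOCAD to ELAVL2 except RN7SL151P, while in AGS CDKN2A is at 0 between MTAP and CDKN2B.

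With ADAR siRNA, MTAP was lower than the control in all 6 libraries of the 3 lines that express it. Its level went from 190 CPM to 142 and 95.6 CPM in BT-549, from 84.3 to 39.3 and 44.0 CPM in NCI-H1395 and from 54.1 to 39.9 and 33.2 CPM in AGS. The ratios ran from 0.467 to 0.744, and each of their 95% counting intervals lay below 1. Of 12152 genes with at least 10 counts in these 3 controls, 9.04% were likewise lower in all 6 libraries. The edgeR log2 fold change over the lines was -0.76 ± 0.14 (SE), with MDA-MB-231 giving no information. ENSG00000265194, a gene on the opposite strand within the MTAP span (chr9:21858910-21861926), was also lower in all 6, with 90, 54 and 39 counts in BT-549, 48, 41 and 23 in AGS and 45, 35 and 19 in NCI-H1395. Without the strand setting its reads and those of MTAP cannot be told apart.

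CDKN2B was higher than the control in 6 of 6 libraries, and by more in library 2 than in library 1 of each line. It went from 82.1 CPM to 108 and 175 CPM in BT-549, from 38.9 to 57.4 and 115 CPM in NCI-H1395 and from 35.1 to 36.2 and 101 CPM in AGS. The ratios to the control were 1.31 and 2.14, 1.48 and 2.96, and 1.03 and 2.87. Only for library 1 of AGS did the counting interval, 0.920 to 1.16, hold 1. Among the 12152 genes, 5.4% were higher in all 6 libraries. Library 2 exceeded library 1 by 1.63-fold in BT-549 (95% counting interval 1.54 to 1.72), 2.01-fold in NCI-H1395 (1.87 to 2.15) and 2.78-fold in AGS (2.54 to 3.05). The edgeR log2 fold change over the lines was 0.97 ± 0.14 (SE). With library 1 alone it was 0.33 and with library 2 alone 1.38.

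CDKN2A moved less than CDKN2B in the same libraries. Its ratios to the control were 1.16 and 1.17 in BT-549 and 1.33 and 1.06 in NCI-H1395, and for library 2 of NCI-H1395 the counting interval of 0.987 to 1.14 held 1. The log2 fold change over the lines was 0.27 ± 0.15 (SE). In CPM per kilobase of exon, the ratio of CDKN2A to CDKN2B went from 6.88 to 6.11 and 3.78 in BT-549 and from 2.22 to 2.003 and 0.794 in NCI-H1395, so that CDKN2B passed CDKN2A in library 2 of NCI-H1395. CDKN2B-AS1 had ratios of 0.962 and 0.878 in BT-549 and 0.927 and 0.801 in NCI-H1395, below 1 in the libraries where CDKN2B was above 1. CDKN2A did not go beyond 0 counts in any ADAR siRNA library of MDA-MB-231 or AGS.

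CDKN2C went in different directions in different lines. It went from 211 CPM to 261 and 410 CPM in BT-549, while it went from 33.9 to 21.5 and 26.6 CPM in MDA-MB-231, from 41.5 to 29.2 and 19.2 CPM in NCI-H1395 and from 2.46 to 1.503 and 1.57 CPM in AGS. In AGS it rested on 42, 26 and 28 counts, and both counting intervals held 1. CDKN2D had ratios of 0.755 and 1.02 in MDA-MB-231, 1.002 and 1.12 in BT-549, 0.683 and 0.542 in AGS and 0.843 and 0.489 in NCI-H1395, and was thus lower in both libraries of NCI-H1395 and AGS. The log2 fold changes over the lines were -0.21 ± 0.24 (SE) for CDKN2C and -0.30 ± 0.17 for CDKN2D.

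**Figure D3:**
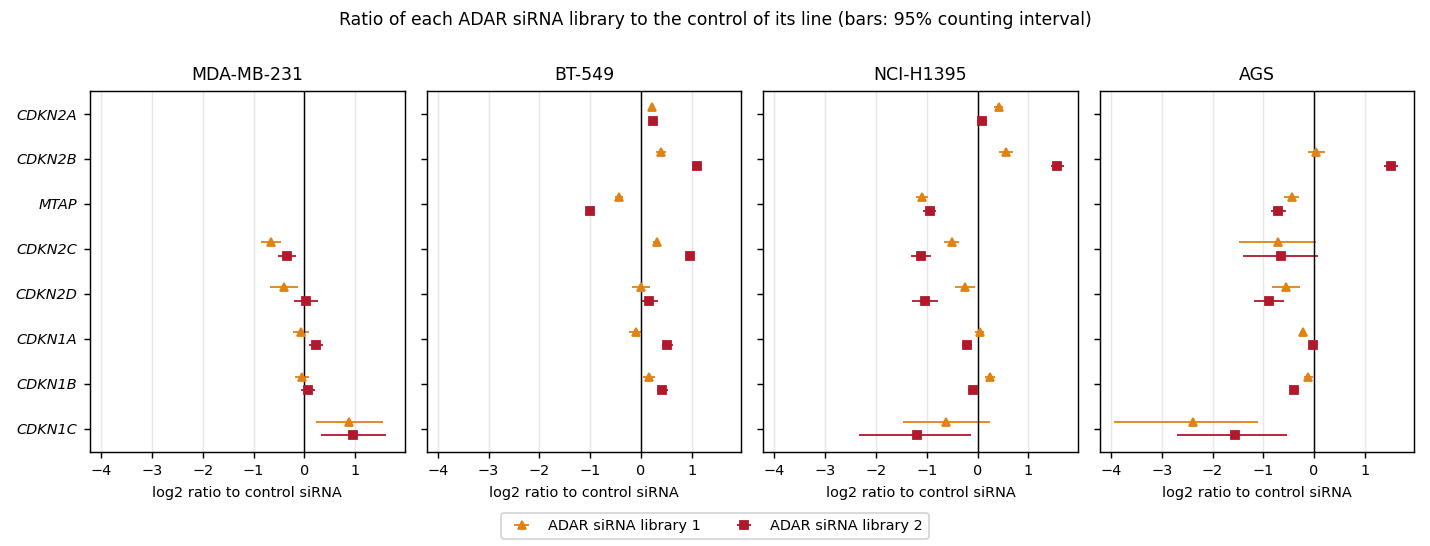
Log2 ratio of each ADAR siRNA library to the control siRNA library of its line for the 8 genes, 1 panel per line, with bars for the 95% counting interval; genes at 0 on either side have no point. MTAP lies left of 0 and CDKN2B right of 0 wherever they are counted, with library 2 of CDKN2B farther right, and CDKN2C lies right of 0 only in BT-549.

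CDKN1A and CDKN1B had no common direction over the 8 ADAR siRNA libraries. For CDKN1A the counting interval lay above 1 in 2 libraries and below 1 in 2. For CDKN1B it lay above 1 in 3 and below 1 in 2. CDKN1A had 8 ratios between 0.856 and 1.43, of which 3 were above 1, with the highest in library 2 of BT-549, where it went from 60.8 to 87.1 CPM. In AGS, the line with most CDKN1A, it went from 510 CPM to 437 and 502 CPM. CDKN1B had ratios between 0.765 and 1.34, of which 4 were above 1. Both ratios were above 1 in BT-549 (1.11 and 1.34) and below 1 in AGS (0.925 and 0.765). Over the lines the log2 fold change was 0.07 ± 0.11 (SE) for CDKN1A and 0.07 ± 0.12 for CDKN1B.

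CDKN1C rested on few counts. It had 35 counts in the MDA-MB-231 control and 51 and 60 with ADAR siRNA, against 31, 6 and 11 in AGS, 28, 23 and 11 in NCI-H1395 and 8, 0 and 0 in BT-549. Scaled to library size the ratios were 1.84 and 1.94 in MDA-MB-231 and 0.191 and 0.340 in AGS, and these counting intervals did not hold 1. In BT-549, on 8 counts in the control, both ratios were 0, with 95% counting intervals that reached up to 0.667 and 0.525. The log2 fold change over the lines was -0.89 ± 0.65 (SE), and leaving out a line gave -1.80 (MDA-MB-231), -0.49 (BT-549) and -0.48 (AGS).

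The 96 other genes of 10 pathway lists and the 106 other genes within 3 Mb of CDKN2A, together 200 genes, were tested in edgeR fits over all genes. Over the 4 lines none of the 124 of these that could be tested passed an adjusted p of 0.05, and the background was 0.0182% of 21944 genes. At an unadjusted p under 0.05 there were 41, of which 14 were higher and 27 lower, against 11.5% of all genes. With DESeq2, 2 were called higher and 14 lower, where 5.98% of the 11308 genes with an adjusted p were called. Over all genes DESeq2 called 138 higher and 538 lower. By edgeR 12564 of the 21944 genes had a log2 fold change above 0 and 9380 below. Within single lines no pathway gene was called by edgeR, with backgrounds of 0.0751% in MDA-MB-231 and 0.00417% in each of BT-549, NCI-H1395 and AGS. Unadjusted p-values under 0.05 within lines numbered 11, 1, 23 and 10 in that order, of 128 tested. Over all 23959 genes tested they numbered 1161, 742, 1270 and 1193.

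Among the targets of the inhibitors, the list of CDK1, CDK2, their cyclins and CDC25 phosphatases had 10 of 11 genes below 0 and a median log2 fold change of -0.38, where the median of all genes was 0.06. By edgeR 0 of 11 passed, with 8 at an unadjusted p under 0.05, and by DESeq2 4 of 11 were called lower. CDK1, the mitotic kinase, had -0.53 ± 0.11 (edgeR adjusted p = 0.103; DESeq2 adjusted p = 0.000755). It went from 181 CPM to 104 and 93.6 CPM in NCI-H1395 and from 138 to 121 and 73.1 CPM in AGS. CCNA2, the cyclin of S phase and G2, had -0.62 ± 0.14 (edgeR adjusted p = 0.158; DESeq2 adjusted p = 0.017) and went from 129 to 55.0 and 60.4 CPM in NCI-H1395. The 5 kinases and cyclins bound or opposed by INK4 proteins had a median of -0.14, with 3 of 5 below 0. CCND1 had -0.60 ± 0.20 (edgeR adjusted p = 0.311), most of it in AGS, where it went from 3164 CPM to 1171 and 1064 CPM. CCND2 had 1.12 ± 0.37 (edgeR adjusted p = 0.262), from low levels.

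Among the 13 pocket proteins and E2F factors the median was -0.07, and 9 were below 0. E2F8 had -0.49 ± 0.15 (edgeR adjusted p = 0.241) and E2F2 -0.74 ± 0.24 (0.258). RB1 had 0.20 ± 0.12 (0.561). Of the 9 genes of p27 turnover and FOXO factors, 5 were above 0. CKS2 and CKS1B, small CDK-binding proteins of which CKS1B helps SKP2 to recognise p27, had -0.66 ± 0.14 (edgeR adjusted p = 0.103; DESeq2 adjusted p = 0.0058) and -0.52 ± 0.13 (0.168; 0.0161). CKS2 was lower than its control in all 8 ADAR siRNA libraries, as were CKS1B, CDK1, CCNA2 and E2F2. The share of all genes lower in all 8 was not counted. In NCI-H1395 CKS2 went from 136 to 70.5 and 67.9 CPM.

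**Figure D4:**
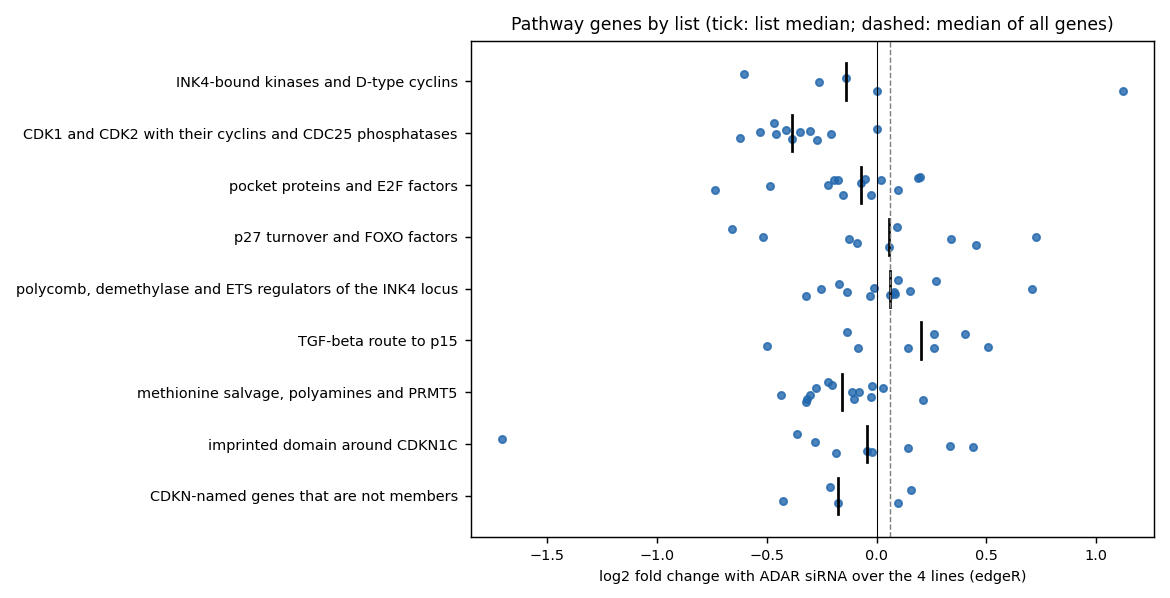
Log2 fold change over the 4 lines (edgeR) of the genes of 9 of the 10 pathway lists, 1 point per gene, by list, with a tick at the list median and a dashed line at the median of all genes (0.06). The list of CDK1, CDK2 and their cyclins lies farthest left, at a median of -0.38, and no gene shown passed an edgeR adjusted p of 0.05.

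Regulators of the INK4 locus and of p21 showed no call by edgeR either. Of 13 polycomb, demethylase and ETS genes, 7 were above 0 with a median of 0.06. EED, a polycomb subunit, had -0.32 ± 0.12 (edgeR adjusted p = 0.317; DESeq2 adjusted p = 0.0046) and ETS1, an activator of CDKN2A, 0.27 ± 0.12 (0.379 by edgeR). The 8 genes of the TGF-beta route to p15 had a median of 0.20, with 5 above 0. TGFBR2, a TGF-beta receptor, had 0.51 ± 0.12 (edgeR adjusted p = 0.160; DESeq2 adjusted p = 0.031). It went from 189 CPM to 221 and 383 CPM in BT-549 and from 91.0 to 78.5 and 255 CPM in NCI-H1395. In AGS it went from 191 to 161 and 249 CPM and in MDA-MB-231 from 303 to 381 and 409 CPM. Library 2 was thus the highest in each line, as it was for CDKN2B in the 3 lines that express it. Across 13593 genes, library 2 minus library 1 differences correlated at 0.21 to 0.49 among those 3 lines. The share of all genes with this pattern was not counted, and a link to CDKN2B was not tested. The ligand gene TGFB1 had -0.50 ± 0.13 (edgeR adjusted p = 0.181; DESeq2 adjusted p = 0.0237) and was lower in library 1 than in library 2 of every line. Among other regulators of p21, KLF6 had 0.28 ± 0.11 (edgeR adjusted p = 0.318) and MDM2 0.01 ± 0.12 (0.990).

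Around MTAP in metabolism, 12 of 14 genes of methionine salvage, polyamine synthesis and PRMT5 were below 0, with a median of -0.16. Over all genes 9380 of 21944 were below 0. ADI1, the salvage dioxygenase, had -0.44 ± 0.14 (edgeR adjusted p = 0.241; DESeq2 adjusted p = 0.0419). PRMT5, the methyltransferase that methylthioadenosine inhibits, had -0.32 ± 0.11 (0.286; 0.0484). PRMT5 went from 107 to 83.7 and 59.0 CPM in AGS and from 96.0 to 99.7 and 68.2 CPM in BT-549. In NCI-H1395 it went from 72.8 to 73.4 and 53.2 CPM. In MDA-MB-231, the line without MTAP, it went from 75.6 to 49.5 and 65.1 CPM. Around CDKN1C, 6 of 9 genes of the imprinted domain were below 0. H19 had -1.71 ± 0.57 (edgeR adjusted p = 0.279), counted mainly in AGS, where it went from 22.5 to 2.77 and 6.39 CPM. KCNQ1OT1, the antisense RNA that silences the CDKN1C domain in cis, had 0.34 ± 0.14 (0.352). Among the CDKN-named genes outside the families, CDKN3 had -0.43 ± 0.16 (edgeR adjusted p = 0.323) and CDKN2AIPNL -0.17 ± 0.13 (0.669).

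Of the genes near CDKN2A, 30 could be tested, 14 were above 0 and 16 below, and the median was -0.05. HAUS6, an augmin subunit, had -0.41 ± 0.11 (edgeR adjusted p = 0.196; DESeq2 adjusted p = 0.00985) and RPS6, a ribosomal protein, -0.36 ± 0.12 (0.258; 0.0432). On the far side of MTAP from CDKN2A, KLHL9 had ratios of 1.03 and 1.09 in BT-549, 1.48 and 1.12 in AGS and 0.966 and 1.06 in NCI-H1395. MIR31HG, a long noncoding RNA, was higher in 6 of 6 libraries, with ratios of 1.41 and 1.47, 3.59 and 6.49, and 1.39 and 1.28, and an edgeR estimate over the lines of 1.002 ± 0.34 on the log2 scale (adjusted p = 0.284). DMRTA1, beyond CDKN2B, had ratios above 1 in BT-549 (1.38 and 1.47) and NCI-H1395 (1.81 and 1.74) and below 1 in AGS (0.468 and 0.857).

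NOP14 overexpression left the 5 counted CDK inhibitor genes of MDA-MB-231 near their PCDH levels, with 1 library per arm and no test. CDKN2C had 76.0 CPM under NOP14 overexpression and 77.0 CPM in PCDH, CDKN1A at 113 and 112 CPM, and CDKN1B at 48.7 and 49.3 CPM. CDKN2D was at 68.5 and 62.1 CPM, a ratio of 1.10 with a 95% counting interval of 1.03 to 1.18. CDKN1C had 62 and 65 counts and a ratio of 1.09 (0.757 to 1.57). None of the 5 was past 1.5-fold, where 4.61% of 15587 genes were, and the middle 90% of all log2 ratios ran from -0.41 to 0.40.

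For CDKN2D, CDKN1A and CDKN2C, the PCDH library differed far more from the control siRNA library of the same line. CDKN2D was 3.91-fold higher in PCDH (62.1 against 15.9 CPM), CDKN1A 2.65-fold (112 against 42.4 CPM) and CDKN2C 2.28-fold (77.0 against 33.9 CPM). CDKN1B was at 49.3 and 50.8 CPM. Other genes differed between these libraries in both directions, such as CDK2, 2.53-fold higher in PCDH, and KCNQ1OT1, at 0.068 of its control siRNA level. The share of all genes that differed as much was not counted. NOP14 itself was lower in PCDH, at 0.384 of its level with control siRNA. These controls belong to different experiments, so the culture, the vector and the library run cannot be told apart.

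**Figure D5:**
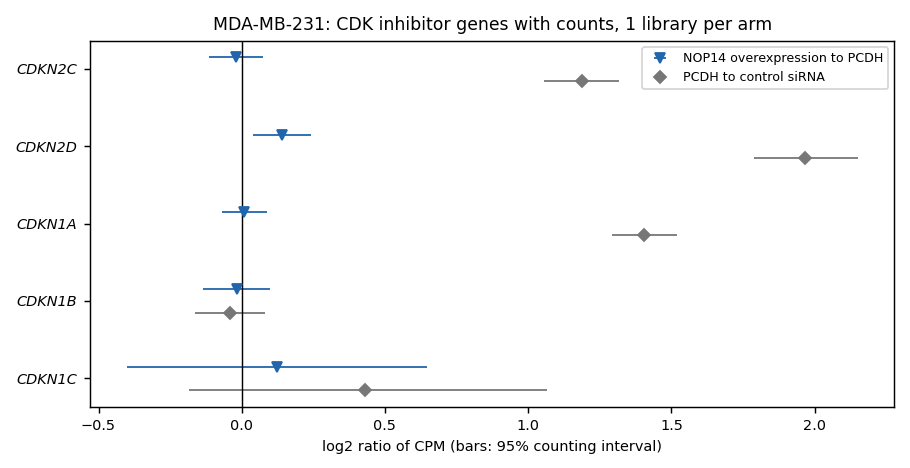
Log2 ratio of CPM in MDA-MB-231 for the 5 CDK inhibitor genes with counts, for NOP14 overexpression against PCDH and for PCDH against control siRNA, 1 library per arm, with bars for the 95% counting interval. The first set lies near 0, with CDKN2D at a ratio of 1.10, and the other reaches 3.91-fold for CDKN2D.

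The genes whose levels were most like those of each inhibitor over the 14 libraries were ranked by Pearson's r of log2(CPM + 1) among 13593 genes, as a description. The libraries of a line share that line, so r mostly reflects 4 lines. CDKN2A was most like FGF2, BNC2 and CDKN2B-AS1 (r = 0.999, 0.999 and 0.998). CDKN2B was most like ZNF793, FKBP10 and HSPD1P1 (0.990, 0.987 and 0.983) and MTAP like FKBP10, EIF5AP4 and SLC19A1 (0.991, 0.990 and 0.988). CDKN2C was most like HLA-C, MXD3 and SHQ1 (0.984, 0.981 and 0.978) and CDKN2D like GTPBP3, RPL10A and ARF4 (0.954, 0.935 and 0.928). CDKN1A was most like SCYL2, ZNF687 and TMBIM1 (0.986, 0.980 and 0.977). CDKN1B had DHRS2 and TEP1 among its 3 closest genes (0.976 and 0.965), and CDKN1C was most like BEND3, CYP4V2 and OAF (0.938, 0.932 and 0.930).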

How the data were processed

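Poly(A) RNA was captured on beads and copied with random hexamers, per the labels' protocols. Per the submitters' processing notes, the tools were featureCounts 2.0.6, STAR 2.7.11a and fastp 0.23.4, with hg38 as the build. The values deposited by the authors are whole-number counts per gene. Of 62702 lines, 3 broken lines of 1 gene (ANK2) were not used. All 14 columns matched a sample.

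The 8 genes, the pathway lists and the rule for named genes were chosen with earlier results of these data known. The rule named the 8 genes, pathway genes called or with the 2 smallest p per list, main cell cycle genes, neighbours with 10 or more counts, and the 3 most alike genes. Some genes that met the rule are not reported here.

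Tests used R 4.3.3 and edgeR 4.0.16 (filterByExpr, TMM, robust quasi-likelihood fits, Benjamini-Hochberg adjustment at 0.05). For the comparison over the 4 lines, both ADAR siRNA libraries were summed per line, and line and treatment were fitted with 3 residual degrees of freedom. All 8 genes passed the filter, the chromosome 9 genes through the lines that express them. Within lines, 12 libraries in 8 groups were fitted with 4 residual degrees of freedom, so the lone control was assumed to vary like the pairs. Separate cultures are not stated, so p-values measure only the spread between these samples. Counting intervals (95%, exact conditional binomial) and floors of 3 counts cover counting error only. NOP14 log2 ratios had a prior count of 2 in the alternatives and are plain CPM ratios in the text. Scripts were tested on simulated data. Alternatives were other scalings and filters, DESeq2 1.42.0, unsummed libraries, a term for library number, and leaving out lines or libraries. The labels do not say whether the numbers stand for 1 siRNA or different ones.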

Additional observations from a re-analysis of the deposited data

Results flagged for a closer look

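CDKN2C moved in opposite directions in different lines: both ADAR siRNA libraries of BT-549 were above their control (ratios 1.24 and 1.94), while both of MDA-MB-231 (0.635 and 0.785) and both of NCI-H1395 (0.704 and 0.462) were below. CDKN1B was above its control in both libraries of BT-549 (1.11 and 1.34) and below in both of AGS (0.925 and 0.765). CDKN1C was above in both libraries of MDA-MB-231 (1.84 and 1.94) and below in both of AGS (0.191 and 0.340), on 6 to 60 counts. For each of these genes, both libraries of one line moved one way and both of another line the opposite way. CDKN2D met this description too, with ratios of 1.002 and 1.12 in BT-549, the first close to 1. Its ratios were 0.683 and 0.542 in AGS and 0.843 and 0.489 in NCI-H1395. The share of all genes with such a pattern was not counted. The 2 libraries of a line share 1 control, and the difference between lines was not tested.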

How the results depend on the processing

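The limits are 1 control per line, 2 ADAR siRNA libraries, an unknown strand setting and counts per whole gene. Depth limits CDKN1C most, at 0 to 60 counts in the siRNA libraries. Pathway genes called over the 4 lines numbered 0 by edgeR, 11 with no filter beyond 1 count and 16 with DESeq2. Leaving out a line or a library number gave 0 to 1 (TGFB1, without MDA-MB-231). Over all genes the calls were 4 of 21944 by edgeR, 394 of 41401 with no filter beyond 1 count and 676 of 11308 with DESeq2. Without MDA-MB-231 they were 75 of 20162. Within lines the pathway genes called numbered 0 by edgeR. With no filter beyond 1 count they were 1 in MDA-MB-231 (SLC22A18), 3 in NCI-H1395 (CCNA2, MIR31HG and KDM6B) and 1 in AGS (CCND1). With DESeq2 they were 2 in NCI-H1395 (CCNA2 and KDM6B) and 1 in AGS (CCND1). Over all genes DESeq2 called 33 higher and 14 lower in NCI-H1395 and 5 higher and 9 lower in AGS. All-gene counts for the other settings within lines are not given here. Leaving out 1 ADAR siRNA library gave 1 to 2 in NCI-H1395, where library 2 alone called MIR31HG and IFNE and library 1 alone KDM6B. The cause was not tested.

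The library 2 minus library 1 differences correlated across 13593 genes at 0.21 to 0.49 among BT-549, NCI-H1395 and AGS and at -0.10 to 0.05 between each of these and MDA-MB-231, and the labels do not say what the numbers share, so the numbers were not taken to pair all 4 lines. With the replicate block, pathway genes called were 1 in MDA-MB-231, 6 in NCI-H1395 and 2 in AGS, and over unsummed libraries the block left CDKN2A at 0.23 and CDKN2B at 0.86.

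The log2 fold change of CDKN2A over the lines (0.27) was 0.30 with library totals, 0.37 with no filter beyond 1 count, 0.24 with DESeq2, unsummed libraries or no cell line term, and 0.15 to 0.34 when a line or library number was left out. CDKN2B (0.97) ran from 0.33 with library 1 alone to 1.38 with library 2 alone. MTAP stayed between -0.89 and -0.62 in these settings. CDKN1C (-0.89) was -1.42 with DESeq2 and -0.15 with no cell line term. CDKN2C went from -0.21 to 0.45 with no cell line term and to -0.60 without BT-549. The chromosome 9 genes have no value under a filter of 10 counts in every column. Of 212 values within lines under alternatives, 205 kept their sign. Over the 12 siRNA libraries alone, the 3 genes most like CDKN2A were again FGF2, BNC2 and CDKN2B-AS1, while 0 of 3 were shared for CDKN2B and CDKN2D.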

Other observations

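KDM6B, a demethylase of the H3K27 mark that polycomb sets on the INK4 locus, was among the few pathway genes that DESeq2 called within a single line, at a log2 fold change of 1.67 in NCI-H1395 (adjusted p = 0.00977, 1 control and 2 ADAR siRNA libraries). CCND1 was called by DESeq2 in AGS at -1.50 (adjusted p = 0.0295). Neither was called within the line by the main edgeR fit, which had the default filter and no replicate block. Both were called by edgeR with no filter beyond 1 count (KDM6B adjusted p = 0.00062, CCND1 7.13e-06). With the default filter and the replicate block both were called too (0.000277 and 1.59e-05). IFNB1, the interferon beta gene that lies in the interval without counts in MDA-MB-231, had 19 counts in the AGS control and 47 and 50 with ADAR siRNA (ratios 2.44 and 2.52), 4, 30 and 5 counts in NCI-H1395, and 12, 4 and 7 in BT-549 (ratios 0.379 and 0.523). These genes were picked for a call by DESeq2 or, for IFNB1, after its counts were seen.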
